A study of Mus musculus with 10 samples.

Results

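The ribosomal protein genes of the cytoplasmic ribosome were followed through a CUT&Tag study of mouse primary cardiac fibroblasts. Members were chosen by gene symbol alone: Rpl or Rps followed by digits and at most 1 of the letters a, l or x, together with Rplp0, Rplp1, Rplp2 and Rpsa, without pseudogenes and without the Rps6k kinases. In all, 68 such genes were named as the nearest gene of at least 1 listed region, out of 22473 genes named, and 41 of them encode proteins of the large subunit and 27 of the small subunit. CUT&Tag directs a transposase to chromatin through an antibody, so that the sequenced reads mark where the antigen sits, and it measures no RNA.

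The libraries used were made with antibodies to lactylated lysine 9 of histone H3 (H3K9lc) and to the transcription factors JUN, SMAD3 and NFATC2. For each of the 4 antibodies there was 1 library of fibroblasts given TGF-β, called TGF here. Each also had 1 library of fibroblasts given TGF-β after transfection with siRNA against hexokinase 1, called siHK1. In addition there was 1 H3K9lc library of control fibroblasts, called NC. Every siHK1 cell was therefore TGF-β treated too. NC, titled a control, was read as cells without TGF-β and without siRNA against hexokinase 1. The titles do not say whether NC or TGF cells were given a control siRNA. The title of the NC library gives no antibody, and it was read as H3K9lc from the table that its label names. Age, strain and number of animals were not given in the labels. With 1 library per condition and antibody, no test between conditions was possible, and a difference between libraries compares those libraries only. The intervals printed are exact 95% intervals, which cover counting error and not the spread between cultures. The knockdown could not be checked, because Hk1 RNA was not measured.

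Reads summed over the listed regions ran from 563562 to 4215447 in the TGF libraries and from 354599 to 2271336 in the siHK1 libraries. Each siHK1 library was shallower than its TGF partner, and the NC library held 115572 reads. Depth here means these sums over listed regions and not the sequencing depth. Counts were scaled so that both libraries of a table had equal totals, and these are called scaled reads below. Such scaling removes any change common to all listed regions, so that change cannot be seen in the scaled ratios. The SMAD3 and NFATC2 libraries were shallow, and between 19.1% and 22.3% of their reads lay in their 10 most read regions. A JUN region lay at the promoter of 6 of 10 fibroblast marker genes (not at Col1a1, Dcn, Lum or Thy1), of 4 of 5 endothelial, 2 of 6 cardiomyocyte, 2 of 5 macrophage and 0 of 4 smooth muscle or pericyte marker genes. An occupied promoter is not an expressed gene, so these counts do not establish the cell type.

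Ribosomal proteins fold around ribosomal RNA to build the small subunit, which reads the messenger RNA, and the large subunit, which joins amino acids. Their genes are scattered over the genome, are transcribed at high rates in nearly all cells, and share short promoters rich in CG pairs that start transcription within a run of pyrimidines, the TCT initiator. Factors of the ETS family, SP1 and YY1 are known to bind many of these promoters. JUN is a subunit of AP-1, SMAD3 carries the TGF-β signal into the nucleus, and NFATC2 is moved into the nucleus by calcineurin. Lactylation of histone lysines uses lactate, the end product of glycolysis, and hexokinase 1 catalyses the entry step of that pathway.

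The promoters that carry the results below are printed first, from 200 bases before to 20 bases after the RefSeq start site (GRCm38.p6), 5′ to 3′ on the strand of the gene. Capitals mark matches, on either strand, to the ETS motif CCGGAA, the SP1 motif GGGCGG, the YY1 motif AAGATGG, the NFAT motif TGGAAA, the AP-1 motif TGANTCA or the CRE motif TGACGTCA. Rps23 is shown because all 4 antibodies had a region there, and its window is chr13:90922922-90923141 (+). Rpsa (chr9:120127566-120127785, +) had the highest JUN level of the members, and Rps16 (chr7:28350489-28350708, +) the highest SMAD3 level. Rpl27 (chr11:101442045-101442264, +) was at least 2-fold higher for JUN in siHK1. Rpl15 (chr14:18270967-18271186, -) and Rps18 (chr17:33955646-33955865, -) had the largest SMAD3 ratios. Rps12 (chr10:23787190-23787409, -) was higher for NFATC2, and Rpl13a (chr7:45128726-45128945, -) ranked among the highest for both SMAD3 and NFATC2. The SMAD3 regions of Rpl13a and the promoter NFATC2 regions of Rps12 lie outside the windows printed for them.
Rps23: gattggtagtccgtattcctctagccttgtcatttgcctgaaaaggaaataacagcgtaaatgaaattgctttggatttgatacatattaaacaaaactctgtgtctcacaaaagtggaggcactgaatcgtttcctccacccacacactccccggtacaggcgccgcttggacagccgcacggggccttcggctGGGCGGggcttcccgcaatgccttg
Rpsa: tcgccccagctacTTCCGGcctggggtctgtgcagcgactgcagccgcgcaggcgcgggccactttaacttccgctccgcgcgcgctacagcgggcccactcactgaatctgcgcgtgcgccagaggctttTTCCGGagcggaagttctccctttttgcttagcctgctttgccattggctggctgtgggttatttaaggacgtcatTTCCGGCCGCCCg
Rpl27: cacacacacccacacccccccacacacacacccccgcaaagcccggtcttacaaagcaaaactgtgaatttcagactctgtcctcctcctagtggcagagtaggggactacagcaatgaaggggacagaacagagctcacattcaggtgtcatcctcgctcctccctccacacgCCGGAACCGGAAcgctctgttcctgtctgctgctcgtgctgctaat
Rps16: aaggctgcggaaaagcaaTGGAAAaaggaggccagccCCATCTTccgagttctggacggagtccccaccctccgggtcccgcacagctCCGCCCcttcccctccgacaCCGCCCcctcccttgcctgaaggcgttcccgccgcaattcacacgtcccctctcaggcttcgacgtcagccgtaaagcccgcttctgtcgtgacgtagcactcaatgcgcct
Rpl15: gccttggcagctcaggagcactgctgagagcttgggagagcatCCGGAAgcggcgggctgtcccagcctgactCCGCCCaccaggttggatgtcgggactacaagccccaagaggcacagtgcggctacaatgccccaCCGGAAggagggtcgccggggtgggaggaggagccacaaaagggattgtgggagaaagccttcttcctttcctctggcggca
Rps18: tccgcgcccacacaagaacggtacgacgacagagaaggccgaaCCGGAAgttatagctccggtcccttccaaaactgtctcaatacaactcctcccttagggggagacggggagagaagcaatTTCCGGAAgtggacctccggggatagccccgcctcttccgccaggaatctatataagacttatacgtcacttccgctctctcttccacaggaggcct
Rpl13a: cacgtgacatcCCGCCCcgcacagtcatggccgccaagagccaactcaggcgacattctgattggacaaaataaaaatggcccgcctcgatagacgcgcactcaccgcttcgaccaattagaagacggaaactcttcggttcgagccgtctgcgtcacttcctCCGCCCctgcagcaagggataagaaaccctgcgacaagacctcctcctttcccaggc
Rps12: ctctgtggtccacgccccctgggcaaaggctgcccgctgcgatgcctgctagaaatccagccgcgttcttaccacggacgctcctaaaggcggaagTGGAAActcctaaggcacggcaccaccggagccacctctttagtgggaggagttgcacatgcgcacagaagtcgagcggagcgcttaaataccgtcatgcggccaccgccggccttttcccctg
In these windows Rps18 and Rpsa held 3 ETS matches each, those of Rps18 including an overlapping pair that reads the same on both strands, and Rpl27 and Rpl15 held 2 each. Rps23 held a single match, an SP1 motif whose first base lies 5 bases before the start. Rps16 and Rps12 held an NFAT match each, and neither AP-1 nor CRE was found in any of the 8 windows. Neither NFAT match lies in a listed NFATC2 region, since the NFATC2 regions of both genes' promoters lie outside the printed windows.

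The same motifs were counted in all promoters of the RefSeq table, from 250 bases before to 50 bases after the start, with 1 promoter per gene. Of the 68 members, 50 had an entry. The ETS motif was found in 26 of these 50 (52.0%) against 15.2% of all 27025 promoters, and the SP1 motif in 30 (60%) against 35.9%. The CRE motif was in 4 (8%) against 1.88%, and the YY1 motif in 6 (12%) against 6.48%. The AP-1 motif was in 2 (4%) against 7.93%, the NFAT motif in 8 (16%) against 21.5%, and the SMAD motif CAGAC in 26 (52.0%) against 49.7%. The initiator letters CTTTC or CTTTT stood on the strand of the gene within 20 bases of the start in 14 members (28.0%) against 9.18%. A median member promoter held 21 CG pairs in 300 bases, and a median promoter of all genes held 7. These are matches of letters and not sites, and they share the base composition of CG-rich promoters.

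JUN lay at the promoter of most ribosomal protein genes. A promoter here is the sum of listed regions within 1 kb of an annotated start site of the gene. For JUN, 57 of 68 members (83.8%, 72.9 to 91.6) had such a region, against 45.6% of all genes named. The share was 34 of 41 for the large subunit and 23 of 27 for the small subunit. It was also high in other gene groups that most cells transcribe: 88.0% of 25 translation factors, 78.9% of 38 proteasome genes, 75% of 24 ribosome biogenesis genes and 72.1% of 68 mitochondrial ribosomal protein genes, all with intervals that overlap that of the ribosomal proteins. For SMAD3, 24 of 68 members (35.3%, 24.1 to 47.8) had a promoter region against 25.4% of all genes, and for NFATC2, 21 (30.9%, 20.2 to 43.3) against 24.6%. For H3K9lc, 5 of 68 members (7.35%, 2.43 to 16.3) had one, against 9.65% of all genes.

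**Figure D1:**
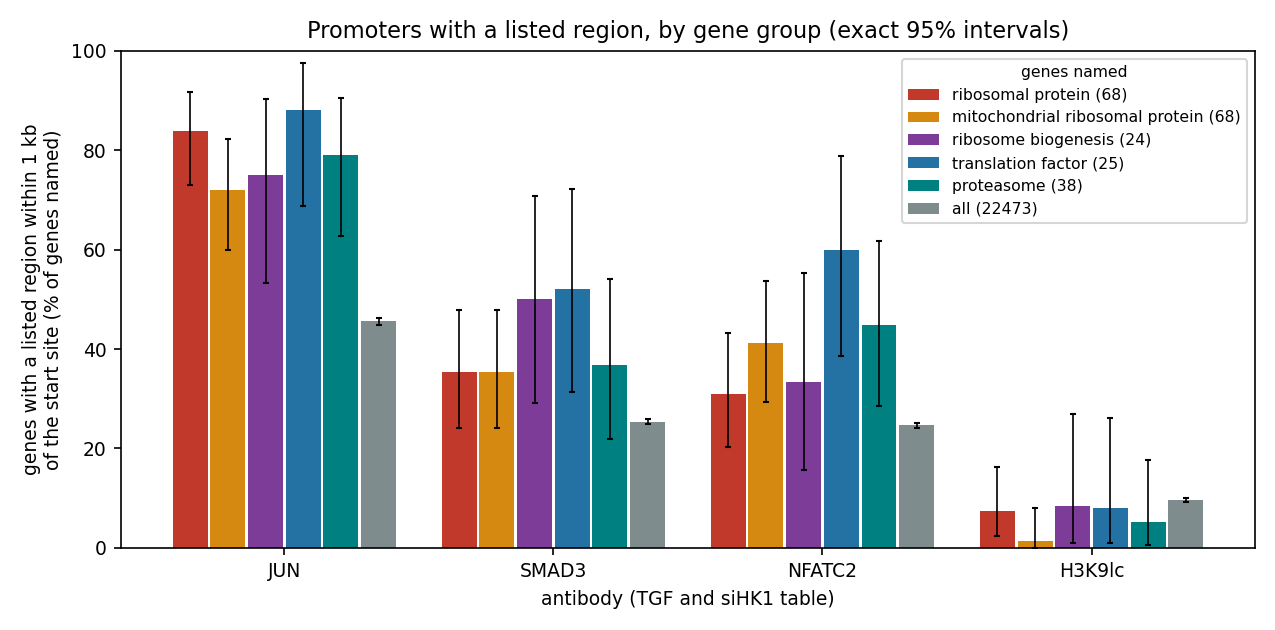
Share of the genes named in the tables that had a listed region within 1 kb of a start site, for each antibody and gene group, with exact 95% intervals as error bars and the number of genes named in brackets. Ribosomal protein genes stood at 83.8% for JUN against 45.6% of all genes, and at 7.35% for H3K9lc against 9.65%.

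The nearest-gene assignment of the tables hides some members. In GENCODE vM21, 80 protein-coding genes meet the naming rule, and 13 of them were named in no table, among them Rpl12, Rpl18, Rpl28, Rpl35, Rpl7a, Rpl8, Rps25, Rps27 and Rps27a. For several of these a region lay within 1 kb of the start but was assigned to a neighbour. Rps27a, which encodes a small subunit protein fused to ubiquitin, had a JUN region over its start with 50 reads in TGF and 28 in siHK1 that was assigned to Clhc1. JUN regions over the starts of Rps25 and Rps27 went to Trappc4 and Rps27rt, and those near the starts of Rpl18 and Rpl7a, without overlapping them, to Sphk2 and Med22. Counted by coordinates alone, JUN had a region within 1 kb of the start of 63 of the 80 genes, SMAD3 of 27, NFATC2 of 26 and H3K9lc of 5, and 15 genes had none of the 3 factors. Of the 68 members, 7 had no promoter region in any table (among them Rpl17, Rpl36, Rpl39l, Rpl6 and Rps15a), and the JUN region near the start of Rpl17 was assigned elsewhere.

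Most of these JUN regions sat on the start site itself. Of the 60 JUN regions at member promoters, 44 overlapped it (73.3%, 60.3 to 83.9), against 61.6% of all JUN promoter regions. The shares were 15 of 26 (57.7%) against 40.4% for SMAD3, and 14 of 22 (63.6%) against 34.4% for NFATC2. Few of them held the AP-1 letters. In the middle 200 bases, the AP-1 motif was found in 3 of 60 member regions (5%, 1.04 to 13.9), in 12% of all JUN promoter regions and in 33.7% of the 41956 JUN regions more than 10 kb from a start. The CRE motif, which JUN can also bind, was in 3 of 60 (5%, 1.04 to 13.9), 1.57% and 0.439%. The ETS motif was in 17 of 60 (28.3%, 17.5 to 41.4), 12.6% and 2.28%. In the NFATC2 regions at member promoters the NFAT motif was in 0 of 22, which allows up to 15.4%, against 12.4% of all NFATC2 promoter regions, and in the SMAD3 regions the SMAD motif was in 8 of 26 (30.8%, 14.3 to 51.8) against 39.0%.

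**Figure D2:**
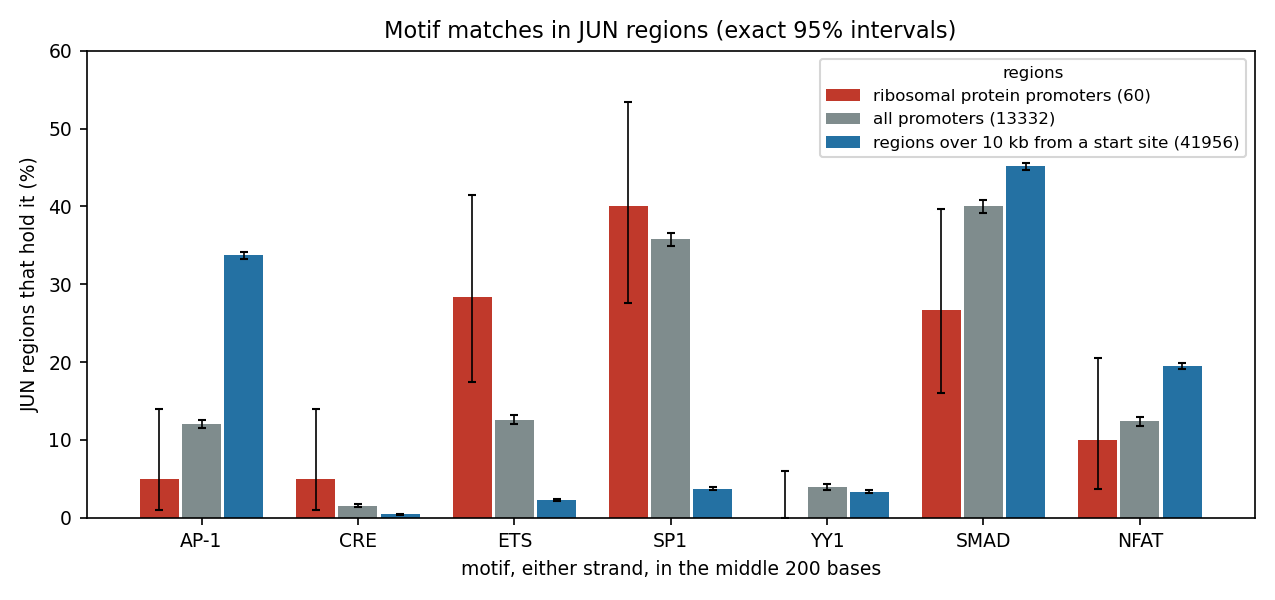
Share of JUN regions whose middle 200 bases hold each motif on either strand, at member promoters, at all promoters and more than 10 kb from a start site, with exact 95% intervals and the number of regions in brackets. AP-1 was in 5% of member promoter regions and in 33.7% of far regions, and ETS in 28.3% and 2.28%.

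The factors overlapped at these genes. Of the 24 members with a SMAD3 promoter region, 23 also had a JUN region (95.8% of the SMAD3 list and 40.4% of the JUN list), where all genes gave 76.3% and 42.6%. Of the 21 with NFATC2, 19 had JUN (90.5% and 33.3%), where all genes gave 72.4% and 39.1%. These shares stand beside a JUN promoter region at 83.8% of all members and 45.6% of all genes. SMAD3 and NFATC2 shared 11 (45.8% and 52.4%), close to 46.1% and 47.5% for all genes. All 3 factors met at 11 genes, among them Rpl13a, Rpl30, Rpl7, Rplp0, Rps16, Rps18, Rps19, Rps21 and Rps23. JUN alone was listed at 26, JUN with SMAD3 at 12, JUN with NFATC2 at 8, and 3 (Rpl23a, Rpl35a and Rps2) had SMAD3 or NFATC2 without JUN. By coordinates the start of Rps2 did have a JUN region, assigned to Snora78. The JUN level moved with this sharing. The 31 JUN promoters that also had a SMAD3 or NFATC2 region had a median of 33.8 scaled JUN reads (5.92 to 148) as the mean of both libraries, and the 26 without had 10.8 (2.88 to 119). The ranges overlap, and the part played by the depth of the shallower SMAD3 and NFATC2 libraries was not tested.

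In JUN the member promoters ranked near the middle of all promoters, with a median percentile of 53.5 by scaled reads per kb. Reads per promoter ran from 5 to 213 with a median of 32 in TGF, and from 1 to 102 with a median of 19 in siHK1. The highest level per kb was at Rpsa, a small subunit protein also known as a laminin receptor precursor, with 140 reads in TGF and 67 in siHK1, or 103 and 91.3 scaled reads. Rps19, a small subunit protein whose mutation causes Diamond-Blackfan anaemia, followed with 137 and 69 reads. Rpl10a of the large subunit had 151 and 93, and Rps29 of the small subunit 122 and 99. Rps14 completed the 5 highest with 213 and 102 reads, but 185 and 75 of these came from a second region assigned to another start of the gene, and the region over the other start held 28 and 27. At the low end Rpl9 and Rps4x each had 7 reads in TGF and 1 in siHK1.

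After scaling, JUN levels at the ribosomal protein promoters were nearly alike in the TGF and siHK1 libraries. Of the 57 promoters, 54 had at least 10 scaled reads over both libraries, and the middle one of their log2 ratios (siHK1 over TGF) stood at 0.13, beside 0.013 for the 9918 promoters of all genes that passed this minimum. None was at least 2-fold lower (5.54% of all promoters were), and 2 were at least 2-fold higher (3.70%, 0.45 to 12.7, against 4.17% of all promoters). Summed over the 57 promoters, the reads were 2453 in TGF and 1452 in siHK1, a scaled log2 ratio of 0.14 (0.041 to 0.23), where all promoters gave 0.014. Before scaling, 52 of the 57 had more reads in TGF, the deeper library, and without scaling 19 would be at least 2-fold lower and 0 higher.

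The 2 promoters past 2-fold were thinly covered or at the edge of the rule. Rpl27, a large subunit protein, had 36 reads in TGF and 39 in siHK1, which is 2.01-fold after scaling (log2 1.01, 0.32 to 1.70). Rps18 had 5 and 6 reads (log2 1.13, -0.82 to 3.21), so that its interval includes no difference. Rpl11 lay just inside the 2-fold limit with 29 and 31 reads (log2 0.99, 0.21 to 1.77). Rpl11 and Rpl5 form a complex with ribosomal RNA that holds Mdm2 when ribosome assembly is disturbed, and Rpl5 had 13 and 9 reads (log2 0.39, -1.04 to 1.70). The interval lay wholly above 0 at 6 of the 54 promoters, Rpl11, Rpl24, Rpl27, Rplp0, Rps27l and Rps29 (6.74% of all promoters), and wholly below 0 at none (6.67% of all promoters).

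Other members fixed by name had ratios on both sides of 0. Rplp0, the base of the stalk that recruits elongation factors, had 45 reads in TGF and 40 in siHK1 (log2 0.72, 0.07 to 1.37). Its stalk partners had 14 and 5 at Rplp1 and 39 and 19 at Rplp2, and both intervals include 0. Rpl3, which lies near the peptidyl transferase centre, had 38 and 23 (log2 0.18, -0.65 to 0.95). Rps3, at the messenger RNA entry channel, had 23 and 11 (log2 -0.14, -1.36 to 0.92), and Rps6, the substrate of S6 kinases, had 9 and 4 (log2 -0.19, -2.43 to 1.56). Rpl13a, which can leave the ribosome to silence inflammatory transcripts, had 93 and 39 (log2 -0.35, -0.94 to 0.19). The lowest ratio past the minimum was at Rps7 with 15 and 4 reads (log2 -0.89, -3.06 to 0.64). Next were Rpl19 (16 and 5), Rpl37a (13 and 4) and Rps28 (13 and 4), tied at log2 -0.69. The intervals of all these genes include 0. The large subunit median was 0.18 (33 promoters) and that of the small subunit 0.058 (21 promoters). Translation factors stood at 0.20, proteasome genes at 0.18, ribosome biogenesis genes at 0.12 and mitochondrial ribosomal protein genes at 0.088. A JUN peak was called in both libraries at 36 of the 60 member regions (60%) against 52.1% of all JUN promoter regions, in TGF only at 20 (33.3% against 36.7%) and in siHK1 only at 4 (6.67% against 11%).

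**Figure D3:**
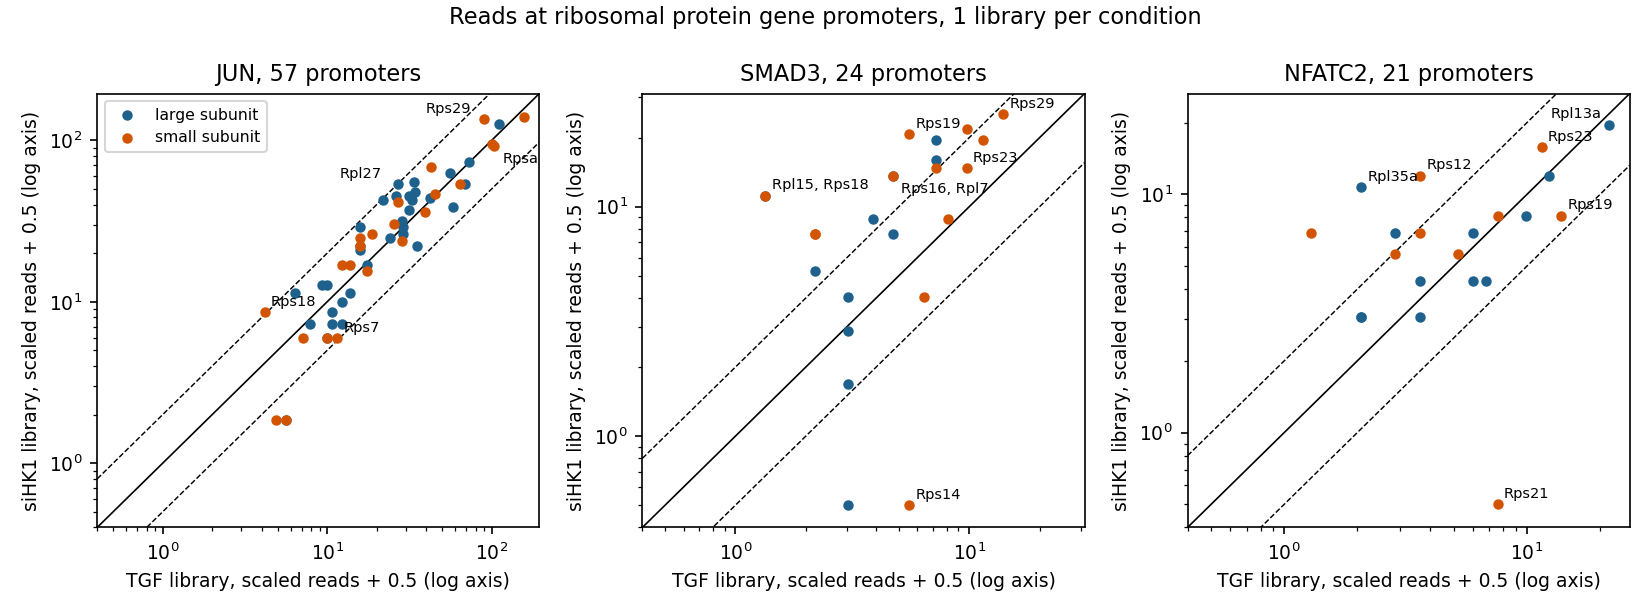
Scaled reads plus 0.5 at each ribosomal protein promoter in the TGF library (x, log axis) and the siHK1 library (y, log axis) for JUN, SMAD3 and NFATC2, 1 point per gene, coloured by subunit, with the solid line at equality and dashed lines at 2-fold. JUN points follow the solid line from 2.88 to 148 mean scaled reads, and most SMAD3 points with at least 10 scaled reads lie above the upper dashed line or close to it.

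SMAD3 at the ribosomal protein promoters was higher in the siHK1 library, as it was at promoters of all genes. Only 15 of the 24 promoters had at least 10 scaled reads. Their median log2 ratio was 1.18, all 15 were above 0, and 10 were at least 2-fold higher (66.7%, 38.4 to 88.2) while 0 were at least 2-fold lower. Over all promoters the median was 1.01, 14.5% were below 0, 50.5% were at least 2-fold higher and 3.11% at least 2-fold lower. The members' share is thus near the background. Setting the median of all promoters to 0 left a median of 0.17 and 2 promoters at least 2-fold higher. Summed over the 24 promoters there were 142 reads in TGF and 210 in siHK1 (log2 1.06, 0.75 to 1.38), where all promoters gave 0.70. Of the 24, 17 had more raw reads in siHK1 although that library held fewer reads over all listed regions. A promoter with few reads passes the minimum only through the library in which it is high, and with no minimum the median was 1.11. Most of the member regions were listed through a peak in siHK1 alone, as were most SMAD3 promoter regions of all genes. Such a listing favours a ratio above 0.

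The counts behind single genes were small. Rpl15 of the large subunit and Rps18 of the small subunit each had 1 read in TGF and 9 in siHK1 (log2 3.16, 0.81 to 9.12). Rps19 had 6 and 17 reads (log2 1.92, 0.59 to 3.63), Rpl19 had 8 and 16 (log2 1.45, 0.19 to 2.93) and Rps27l, a copy of Rps27 induced by p53, had 11 and 18 (log2 1.18, 0.045 to 2.43). These 5 are the ones whose interval lay above 0 (33.3% of all promoters), and no member interval lay below 0 (1.78% of all promoters). Rps16 had the highest level per kb with 5 and 11 reads (log2 1.56, -0.010 to 3.51), followed by Rps29 with 16 and 21, Rpsa with 8 and 12, Rpl13a with 8 and 13 and Rps21 with 13 and 16. The intervals of these 4 also include 0. Ratios were lower at Rps23 with 11 and 12 reads (log2 0.62, -0.69 to 1.94) and at Rpl23 with 5 and 6 (log2 0.74, -1.22 to 2.81). Rplp0 had 2 and 4 reads, under the minimum. Going the other way under the minimum, Rps14 had 6 and 0 reads, with an interval of the log2 ratio that reaches up to 0.26 and so includes 0, and Rpl37 had 3 and 0. Of 26 member regions, 17 were called as peaks in siHK1 only (65.4% against 63.7% of all SMAD3 promoter regions). Another 5 were called in TGF only (19.2% against 26.8%) and 4 in both (15.4% against 9.18%). Rps6, Rpl5, Rpl11, Rpl3 and Rps3 had no SMAD3 promoter region.

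After scaling, NFATC2 showed no common shift over the ribosomal protein promoters. Of 21 promoters, 10 passed the minimum, 5 were above 0 and 5 below, and the median log2 ratio was 0.072 against 0.093 over all promoters. At least 2-fold higher were 2 of 10 (20%, 2.52 to 55.6, against 17.5% of all promoters), and 0 were lower (10.8% of all promoters). The summed reads were 160 in TGF and 114 in siHK1 (log2 0.21, -0.15 to 0.57), where all promoters gave -0.0096. The higher ones were Rpl35a, a Diamond-Blackfan anaemia gene of the large subunit, with 2 and 8 reads (log2 2.46, 0.37 to 5.97), and Rps12 with 4 and 9 reads over 2 regions (log2 1.78, 0.028 to 4.02). Both intervals lie above 0 (8.42% of all promoters). The highest level per kb was at Rps23, a protein of the decoding centre, with 14 and 12 reads (log2 0.49, -0.77 to 1.70). Rpl27 followed with 12 and 6, Rpl13a with 27 and 15, Rplp2 with 3 and 5 and Rps16 with 4 and 5. The lowest ratio past the minimum was at Rps19 with 17 and 6 reads (log2 -0.73, -2.43 to 0.61), then Rpl34 with 8 and 3 and Rpl27. No interval of a promoter past the minimum lay below 0 (4.14% of all promoters), but Rps21, under the minimum, had 9 and 0 reads, at least 1.85-fold lower against a floor of 3 reads. Rplp0 had 7 and 5 reads, Rpl3 had 4 and 2, and Rpl11 had 2 and 2. Of 22 member regions, 12 were called as peaks in siHK1 only (54.5% against 47.6% of all NFATC2 promoter regions), 8 in TGF only (36.4% against 44.8%) and 2 in both (9.09% against 7.31%).

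Rps18 and Rps19 give the factors side by side. At Rps18 SMAD3 reads were 1 in TGF and 9 in siHK1, NFATC2 reads 6 and 4, and JUN reads 5 and 6. At Rps19 they were 6 and 17 for SMAD3, 17 and 6 for NFATC2, and 137 and 69 for JUN. The scaled ratio at Rps19 was thus above 0 for SMAD3 by more than counting error, while the NFATC2 and JUN intervals include 0. The SMAD3 interval (log2 0.59 to 3.63) also includes 1.01, the SMAD3 median over all promoters.

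**Figure D4:**
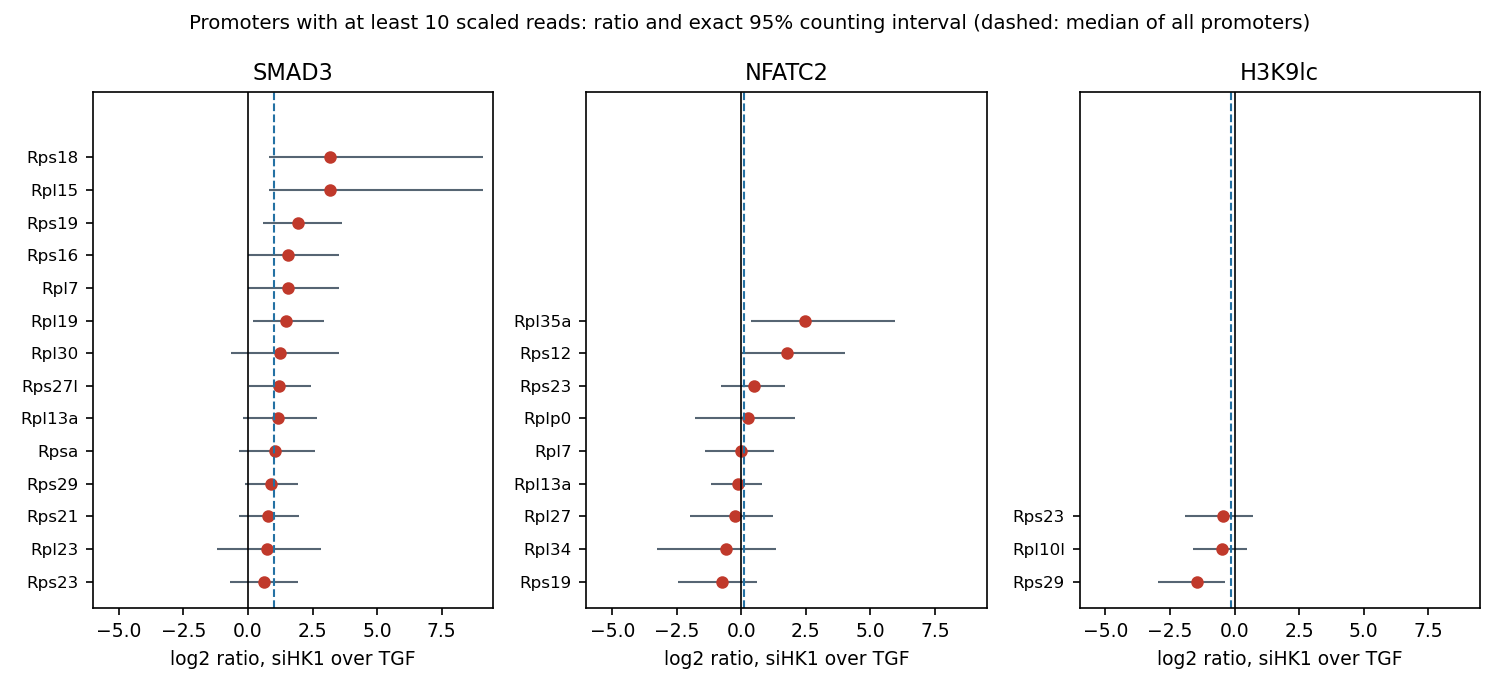
Log2 ratio of siHK1 over TGF (points) with exact 95% counting intervals (lines) for the ribosomal protein promoters reported by name that have at least 10 scaled reads in the SMAD3, NFATC2 and H3K9lc tables, with the median of all promoters dashed. The SMAD3 points all lie above 0, around the all-promoter median of 1.01, the NFATC2 points lie on both sides of 0, and the 3 H3K9lc points lie below it.

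H3K9lc regions lay at few ribosomal protein promoters. The 5 genes with a region were Rpl10, Rpl10l, Rps23, Rps29 and Rps4x, all 5 regions were called as peaks in TGF only (58.1% of all H3K9lc promoter regions were), and all 5 had more raw reads in TGF, the deeper library. Rpl10 helps the subunits to join, Rpl10l is its intron-poor copy used in the testis, and Rps4x is the X-linked form of Rps4. Their median percentile among all H3K9lc promoters was 30.8 by scaled reads per kb and 64.0 by scaled reads not divided by length, with a median of 25.7 scaled reads against 17.8 for all. Rps29 had 36 reads in TGF and 7 in siHK1, which is 2.77-fold lower after scaling (log2 -1.47, -2.96 to -0.36). Rpl10l had 30 and 12 reads (log2 -0.48, -1.61 to 0.50) and Rps23 had 20 and 8 (log2 -0.46, -1.90 to 0.73). Rpl10 with 7 and 3 and Rps4x with 6 and 2 were under the minimum. Thus 1 of 3 promoters past the minimum was at least 2-fold lower (13.8% of all promoters) and 0 were higher (9.19% of all promoters). Summed, the 5 promoters had 99 and 32 reads (log2 -0.82, -1.44 to -0.23), where all promoters gave -0.12. Since each of the 5 regions was listed through a peak in TGF alone, a ratio below 0 is favoured by how they were called, and the value for all promoters mixes regions of both libraries. The interval below 0 rests on Rps29, since the other 4 promoters, summed apart after the data were seen, had 63 and 25 reads (log2 -0.52, -1.25 to 0.17). None of Rplp0, Rpsa, Rps6, Rps19, Rpl5, Rpl11, Rps27a, Rpl3, Rps3 and Rpl13a had an H3K9lc promoter region.

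The Rps29 value cannot be given to that gene alone. Its H3K9lc region at chr12:69159001-69159615 (GRCm38) spans the Rps29 start and the whole of Rn7s1, a 7SL RNA gene on the opposite strand at chr12:69159295-69159594. The 7SL RNA has many near-identical copies in the genome, so reads there can be misplaced, and how the aligner treated them was not given in the sources used here. The JUN region at this start, 122 and 99 reads (log2 0.59, 0.19 to 0.99), covers Rn7s1 too, and the SMAD3 region, 16 and 21 reads, covers part of it. Rps23, the only member with a promoter region of all 4 antibodies, has no other annotated gene within its regions. Its H3K9lc region was chr13:90922779-90923215, inside which the printed sequence lies. There, TGF and siHK1 held 20 and 8 H3K9lc reads, 53 and 26 JUN reads, 11 and 12 SMAD3 reads, and 14 and 12 NFATC2 reads, and all 4 intervals include 0.

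**Figure D5:**
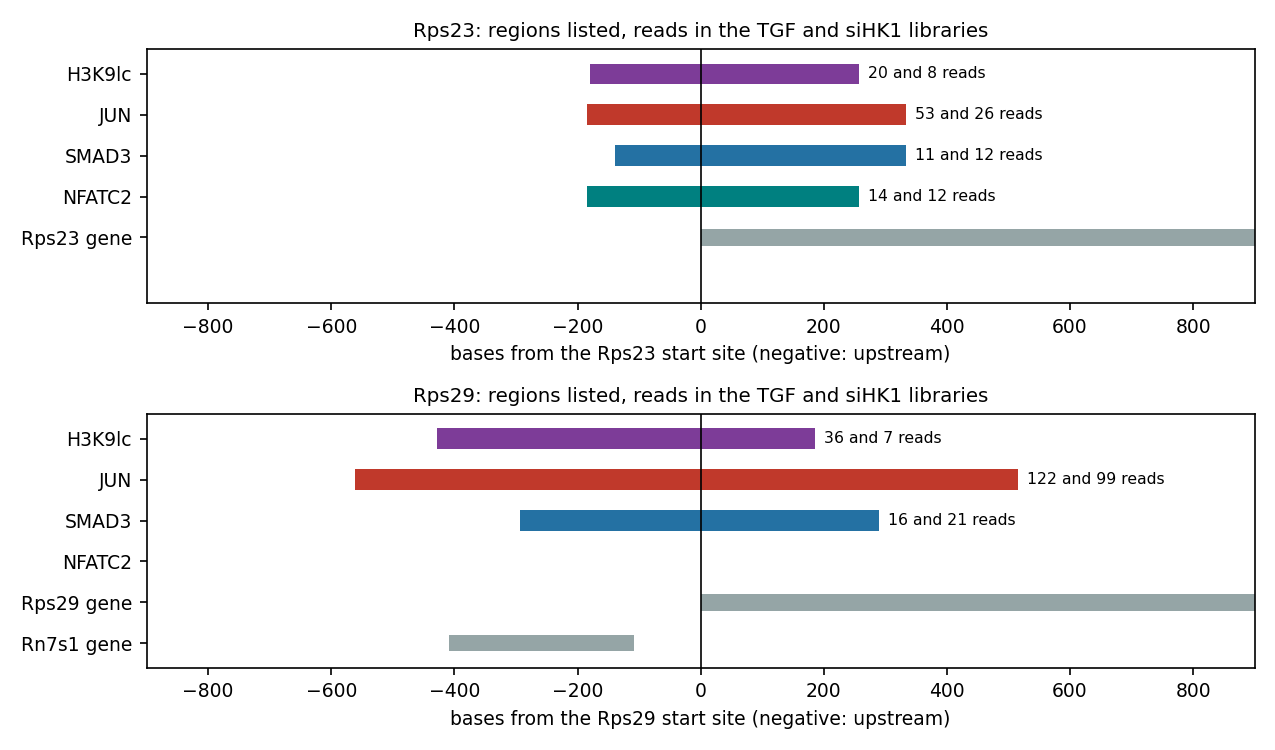
Listed regions within 1 kb of the Rps23 and Rps29 start sites (x, bases from the start, negative upstream), 1 row per antibody, with the reads of the TGF and then the siHK1 library beside each bar and annotated genes in grey. At Rps23 all 4 antibodies overlap the start, and at Rps29 the H3K9lc and JUN regions reach over the Rn7s1 gene upstream while NFATC2 has none.

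Control fibroblasts could be compared for H3K9lc only, and the NC library was too shallow for most members. The same TGF library enters both H3K9lc comparisons, with regions listed afresh. At the 5 promoters NC had 4 reads at Rps29 and 0 at Rpl10, Rpl10l, Rps23 and Rps4x, and TGF had 40, 7, 26, 20 and 6 in that order. At each of the 4 genes with 0, a floor of 3 NC reads would after scaling stand above the TGF value, so no fold was given. Rps29 was the 1 promoter past the minimum, with a log2 ratio of TGF over NC of -1.15 (-2.47 to 0.94). It counts as at least 2-fold lower (30.1% of all promoters; 8.44% were higher), but its interval includes 0 and it was not past 2-fold when the median of all promoters was set to 0. The direction itself rests on the scaling, since the 4 and 40 reads without scaling give a log2 ratio of 3.17.

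Most H3K9lc regions assigned to ribosomal protein genes were far from them. Of 118 such regions, 113 lay more than 1 kb from a start, at a median of 96.1 kb, and 80.5% of the 118 were distal intergenic against 65.3% of all H3K9lc regions. They named 18 genes, led by Rpl10l with 25, Rps29 with 20, Rpl38, a large subunit protein known for Hox translation, with 14, Rpl39l with 12 and Rplp1 with 10. At such distances the name says only which start is nearest. Of the 113, 88 passed the minimum, with a median log2 ratio (siHK1 over TGF) of 0.18 against -0.091 for all regions over 1 kb from a start. At least 2-fold higher were 15 (17.0%, 9.87 to 26.6, against 8.74% of all such regions), and 5 were lower (5.68%, 1.87 to 12.8, against 10.2%). The higher regions were spread over 10 genes, with 3 each at Rpl39l and Rplp1 and 2 at Rps24, while the 16 regions of Rps29 included 2 lower and 0 higher. Regions of 1 gene are neighbours on the chromosome and not independent. In TGF over NC, 26 of 98 distant regions passed the minimum, of which 4 were at least 2-fold lower (21.5% of all such regions) and 1 higher (10.1% of all such regions), and NC had 0 reads in 46 of the 98. An NC read counts as 4.47 scaled reads and a TGF read as 0.224, so 11 of the 26 passed the minimum by their NC reads alone and 12 by their TGF reads alone. All 26 had more raw reads in TGF, and the 4 lower ones had 2 to 6 reads in NC and 7 to 64 in TGF, so that their direction too rests on the scaling.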

How the data were processed

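CUT&Tag libraries were made by the authors from mouse primary cardiac fibroblasts with a Vazyme kit. The authors aligned the reads, called peaks and deposited, for each pair of libraries, a list of regions with the raw read counts of both libraries, a mark for a called peak in each library and the nearest gene. Their methods name Bowtie2, MACS2 and the GRCm39 build, while the submitters' processing notes name BWA 0.7.12 and mm10. Of 48832 transcripts in the tables, 48724 (99.8%) had the same coordinates in GENCODE vM21, so the coordinates were read as GRCm38. The deposited fold changes, p-values and change calls of the authors were not used, nor were 10 columns of normalized values whose names give no sample. A further table, of a library titled TGF with no antibody in its labels, was not used. Overlap with Rn7s1 and other genes was read from GENCODE vM21, and promoter sequences came from RefSeq (GRCm38.p6).

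Groups were taken from library titles, and 9 of 10 libraries entered 5 tables. Counts were scaled to equal totals over all listed regions of a table. Regions within 1 kb of an annotated start were summed per gene, and log2 ratios used a pseudocount of 0.5. With 1 library per group no test was run: a promoter was counted as changed at 2-fold or more, among those with at least 10 scaled reads over both libraries. Exact (Clopper-Pearson) 95% intervals of the conditional binomial cover counting error only, and PCR reads are not independent molecules. The calculation was tested on simulated data. In each table the genes named were the 5 with the highest level, the 3 with the largest ratio in each direction past the minimum, and Rplp0, Rpsa, Rps6, Rps19, Rpl5, Rpl11, Rps27a, Rpl3, Rps3 and Rpl13a. Others were named after their values were seen, and some members are not reported by name here. The members and lists were chosen with earlier results of these data known. Analyses used Python 3.11.15, pandas 2.3.3, numpy 2.4.6, scipy 1.17.1 and pysam 0.24.0. Alternatives changed the scaling, pseudocount, window, minimum, fold and members.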

Additional observations from a re-analysis of the deposited data

How the results depend on the processing

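Of 203 values for the promoter summaries under alternative settings, 154 stayed within a tolerance, 47 moved and 2 reversed, and of 479 values for single genes 464, 13 and 2. Values counted as moved can also have changed sign, as did the JUN median (0.13 to -0.76) without scaling. The H3K9lc median (-0.48 to 0.32) did so over all regions of each gene. The tolerance was the mean arm of the exact interval for a log2 ratio (for a median, that of the summed reads), 1.5 times for a count and the exact interval for a percentile, and it is wide where reads are few. The pseudocount, the 3 kb window and the single most read region changed none of the summaries by more than this, nor did leaving out the gene copies, start sites by coordinates or totals without the 10 most read regions (the last pair chosen after seeing the data). Within it, the H3K9lc median went from -0.48 over 3 promoters to -0.96 over 2 without the copies.

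Without scaling, the median log2 ratio was -1.29 for H3K9lc with 3 promoters at least 2-fold lower, -0.76 for JUN with 19 lower and 0 higher, 0.69 for SMAD3 with 5 higher, and -0.63 for NFATC2 with 2 lower. In TGF over NC it reversed to 3.17 (the single promoter is Rps29), with 0 lower and 1 higher. With the median of all promoters at 0, which shifts SMAD3 by -1.01, SMAD3 had a median of 0.17 with 2 higher, JUN had 1 higher and TGF over NC 0 lower. With the median of regions called in both libraries at 0, a setting added after seeing the data, JUN had 1 higher and TGF over NC 0 lower. Over all regions of each gene the median was 0.32 for H3K9lc (17 genes) and 0.49 for SMAD3, and in TGF over NC it reversed to 0.16, with Rps29 itself at 0.49. These regions are mostly far from the gene. A minimum of 20 scaled reads gave JUN a median of 0.23 with 1 higher, SMAD3 5 higher and NFATC2 0 higher. No minimum gave JUN 3 lower, SMAD3 2 lower and 13 higher, NFATC2 1 lower and 5 higher, and TGF over NC 2 higher (Rpl10l and Rps23, where NC had 0 reads and no fold can be given). At 1.5-fold JUN had 6 lower and 11 higher and NFATC2 1 lower. By intervals that exclude 0, JUN and SMAD3 had 6 and 5 higher and TGF over NC 0 lower. Members with a region at any distance numbered 20 for H3K9lc, 43 for SMAD3, 44 for NFATC2 and 23 in TGF over NC. Those with a promoter peak called in both libraries numbered 0 for H3K9lc, 35 for JUN, 4 for SMAD3, 2 for NFATC2 and 1 in TGF over NC, and those with at least 10 scaled reads numbered 3 for H3K9lc, 15 for SMAD3, 10 for NFATC2 and 1 in TGF over NC. For none of these values was the cause tested.

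No paired analysis was possible because there was 1 library for every condition and antibody, and for the same reason no library was left out. The alternative on the deposited normalized values was not run, since their columns name no sample. Depth limits the SMAD3, NFATC2 and NC values most, where many promoters held fewer than 10 reads.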

Other observations

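Beyond their promoters, the ribosomal protein genes were the nearest genes of 94 JUN, 85 SMAD3 and 101 NFATC2 regions over 1 kb from a start, at medians of 33.2, 67.4 and 71.9 kb. Rps29, Rplp1 and Rps24 were among the genes with most such regions for all 3 factors, with 11, 11 and 12 JUN regions, 15, 11 and 5 SMAD3 regions and 14, 9 and 9 NFATC2 regions. These regions held 3683 JUN reads in TGF and 1862 in siHK1, 401 and 220 SMAD3 reads, and 310 and 260 NFATC2 reads. The median log2 ratio over those past the minimum was -0.13 for JUN (79 regions), -0.13 for SMAD3 (13 regions) and 0.34 for NFATC2 (13 regions), beside -0.041, 0.094 and -0.038 for all such regions. The SMAD3 median at the member promoters was 1.18.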
